A study of Mus musculus with 6 samples.

Results

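Hypothalamic expression of 10 genes was described: the peptide genes Hcrt, Pmch, Nts, Gal and Qrfp, and the receptor genes Hcrtr1, Hcrtr2, Mchr1, Ntsr1 and Galr1. They were chosen by name as peptides of the lateral hypothalamus and their receptors, with no threshold on a measured value. Each had 1 probeset with a single gene in the platform annotation, and all 10 had a mean signal above the filter of 6, out of 17072 genes with such a probeset and 16663 tested. The 6 arrays (Affymetrix Mouse Gene 1.0 ST) held RNA of the hypothalamus of female C57Bl/6J mice aged 21 weeks. In the CGP group (3 arrays) the dams had received the NMDA receptor antagonist CGP 39551 orally at 5 mg/kg body weight from pregnancy to the end of weaning, and the control group (CON, 3 arrays) is labelled as control only. RNA of 18 mice was pooled in each group. Whether each array had its own pool of mice is not stated. The p-values therefore measure array-to-array spread, possibly only technical, and cannot be read as a measure of spread between individual mice.

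The lateral hypothalamus holds separate populations of neurons that make orexins (from Hcrt) or melanin-concentrating hormone (MCH, from Pmch), and both project widely through the brain. Orexin neurons are known for keeping wakefulness stable, and their loss causes narcolepsy. MCH neurons are linked to feeding, energy storage and REM sleep. Neurotensin and galanin are made in further lateral hypothalamic neurons and in many other brain regions, and Qrfp encodes an RFamide peptide of the hypothalamus that promotes feeding. Each peptide is cut from a precursor in secretory granules and acts on G protein-coupled receptors, which are mostly carried by cells outside the lateral hypothalamus.

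None of the 10 genes passed the test between CGP and CON (limma, Benjamini-Hochberg adjusted p under 0.05 over all tested probesets). Over all 18239 tested probesets the same test called 51, which is 0.28%. At an unadjusted p under 0.05 in limma, 1 of the 10 genes passed, Hcrtr2, beside 11.1% of all tested probesets. Differences (CGP minus CON, log2 scale) ran from -0.14 for Hcrtr2 to 0.048 for Mchr1, with 7 genes lower and 3 higher, and their median of -0.020 stands beside -0.0031 over all tested probesets. The precision was close to that of other probesets, with standard errors of 0.041 to 0.055 against a median of 0.046. No 95% interval of the 10 genes reached beyond 0.25 in either direction, a 1.19-fold change, and the smallest difference called among all tested probesets was of about that size (0.25). Arrays of the groups lay apart for 1 of the 10 genes, again Hcrtr2, against 17.5% of all tested probesets. Because whole tissue was measured, fewer cells of a type and less RNA per cell cannot be told apart.

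**Figure D1:**
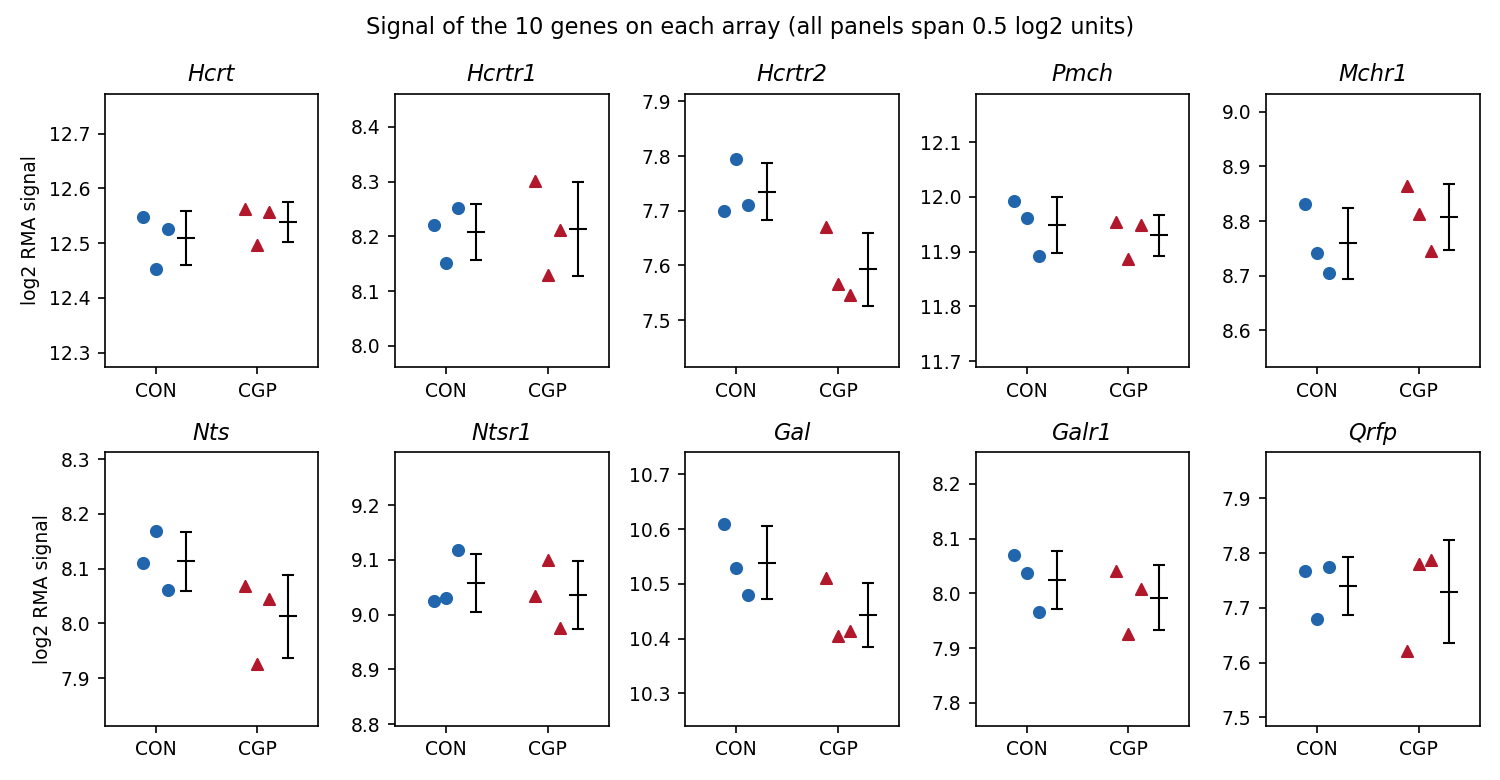
Log2 RMA signal (vertical axis) of the 10 genes on the 3 CON arrays (circles) and the 3 CGP arrays (triangles), with the mean and SD of each group beside the points. The groups are apart in the Hcrtr2 panel, where the CGP arrays lie between 7.55 and 7.67 and the CON arrays between 7.70 and 7.79, and they overlap in the other 9 panels.

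The stretches of 250 bases before the RefSeq start of Hcrt, Pmch and Nts are shown. Of the 9 members searched, these were the ones that held either of the motifs TATAAA (the core of the TATA box) and TGAGTCA (bound by Fos and Jun dimers). Motifs were searched on both strands and stand in capitals. No array value bears on the binding of any factor there. The sequences are from RefSeq, build GRCm38.p6, and lie at chr11:100762932-100763181 on the minus strand (Hcrt), chr10:88090822-88091071 on the plus strand (Pmch) and chr10:102490419-102490668 on the minus strand (Nts).
Hcrt: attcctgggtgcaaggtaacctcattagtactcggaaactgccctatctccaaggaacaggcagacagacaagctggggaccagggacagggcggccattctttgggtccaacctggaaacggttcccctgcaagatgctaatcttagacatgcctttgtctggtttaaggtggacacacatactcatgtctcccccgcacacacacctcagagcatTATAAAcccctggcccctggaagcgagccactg
Pmch: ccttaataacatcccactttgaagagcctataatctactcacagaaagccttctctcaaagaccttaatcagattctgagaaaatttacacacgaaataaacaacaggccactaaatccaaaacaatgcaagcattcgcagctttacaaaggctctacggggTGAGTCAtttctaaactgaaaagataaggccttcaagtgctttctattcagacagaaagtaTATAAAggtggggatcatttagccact
Nts: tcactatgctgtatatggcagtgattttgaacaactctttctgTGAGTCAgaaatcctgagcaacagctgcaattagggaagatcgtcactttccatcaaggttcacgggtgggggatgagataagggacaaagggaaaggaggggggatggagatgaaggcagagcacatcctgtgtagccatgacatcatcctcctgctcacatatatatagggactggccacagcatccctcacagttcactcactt

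TATAAA began 33 bases before the start of Hcrt and 27 bases before that of Pmch, and it is found in 12.4% of the 32851 RefSeq windows of this length. TGAGTCA began 88 bases before the start of Pmch and 207 bases before that of Nts, and 4.46% of all windows hold it. The cAMP response element TGACGTCA, in 1.55% of all windows, was in none of the 11 windows of the 9 members searched. The search of the members left out windows on a chromosome that the shares over all windows include. These matches are a description of letters, and the 3 genes that carry them are taken up below with the others.

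Hcrt encodes prepro-orexin, the precursor of orexin-A and orexin-B, and its signal differed little between the groups. The CON arrays read 12.55, 12.45 and 12.53, and the CGP arrays 12.56, 12.50 and 12.56. The lowest array was CON replicate 2, the other 5 arrays lay close together, and the groups overlapped. The difference was 0.029 (standard error 0.041, 95% interval -0.065 to 0.12, adjusted p = 0.829 from limma), so that the interval runs from 0.96-fold to 1.09-fold.

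The receptors of the orexins gave the lowest and the highest adjusted p among the 10 genes. Hcrtr1, the receptor that prefers orexin-A, read 8.22, 8.15 and 8.25 in CON and 8.30, 8.13 and 8.21 in CGP. Its 3 CGP arrays took in the whole CON range, and the difference was 0.0059 (standard error 0.052, 95% interval -0.11 to 0.13, adjusted p = 0.981 from limma). Hcrtr2, the receptor for both orexins and the one whose loss gives narcolepsy in dogs, read 7.70, 7.79 and 7.71 in CON and 7.67, 7.57 and 7.55 in CGP. Every CGP array was below every CON array, with CGP replicate 1 the closest to the CON range. For Hcrtr2 the difference was -0.14 (standard error 0.047, 95% interval -0.25 to -0.033), a 1.10-fold lower signal, and it did not pass the test (adjusted p = 0.358 from limma). With any 1 array left out it stayed between -0.18 and -0.11, with an adjusted p of 0.209 to 0.622 from limma.

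Pmch encodes the precursor of MCH, and its signal was as even as that of Hcrt. The values were 11.99, 11.96 and 11.89 on the CON arrays and 11.95, 11.89 and 11.95 on the CGP arrays. CGP replicate 2 was the lowest of the 6 arrays, marginally below the lowest CON array, and the other CGP arrays lay within the CON range. The difference of Pmch was -0.018 (standard error 0.041, 95% interval -0.11 to 0.077, adjusted p = 0.906 from limma). Mchr1 is the receptor of MCH in rodents and acts through inhibitory G proteins. Its signal read 8.83, 8.74 and 8.71 in CON and 8.86, 8.81 and 8.74 in CGP, with the highest array in CGP and the lowest in CON but 1 CON array above 2 of the CGP arrays. It was the member with the largest positive difference, 0.048 (standard error 0.048, 95% interval -0.064 to 0.16, adjusted p = 0.754 from limma).

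Neurotensin and galanin had the largest differences among the peptide genes, both downward, and neither passed the test. Nts, which encodes neurotensin and neuromedin N, read 8.11, 8.17 and 8.06 in CON against 8.07, 7.93 and 8.04 in CGP. Only CGP replicate 1 reached into the CON range. This gave a difference of -0.10 (standard error 0.050, 95% interval -0.22 to 0.015, adjusted p = 0.510 from limma). Gal, which encodes galanin, read 10.61, 10.53 and 10.48 in CON against 10.51, 10.40 and 10.41 in CGP. Here too CGP replicate 1 was the one array inside the CON range, and the difference was -0.096 (standard error 0.048, 95% interval -0.21 to 0.015, adjusted p = 0.511 from limma).

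For their receptors the differences were smaller in size. Ntsr1, the receptor that binds neurotensin with high affinity and signals through Gq, read 9.02, 9.03 and 9.12 in CON and 9.03, 9.10 and 8.98 in CGP, a difference of -0.021 (standard error 0.046, 95% interval -0.13 to 0.085, adjusted p = 0.902 from limma). Galr1, an inhibitory receptor of galanin, read 8.07, 8.04 and 7.97 in CON and 8.04, 7.93 and 8.01 in CGP, a difference of -0.032 (standard error 0.046, 95% interval -0.14 to 0.073, adjusted p = 0.831 from limma). For both genes the ranges of the groups overlapped widely.

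Qrfp varied most among the CGP arrays, with values of 7.77, 7.68 and 7.77 in CON and 7.62, 7.78 and 7.79 in CGP. The lowest and the highest of its 6 values were both in CGP (SD 0.094, n = 3 arrays). Its difference was -0.010 (standard error 0.055, 95% interval -0.14 to 0.12, adjusted p = 0.963 from limma). In the RefSeq table Qrfp overlaps Abl1, a kinase gene named here after its values were seen. Abl1 has its own probeset and differed by -0.042 (adjusted p = 0.726 from limma). Pmch overlaps Parpbp, which was not analysed here, and signal from a transcript that overlaps the probes cannot be separated.

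Some arrays stood low or high for several of the 10 genes. CGP replicate 2 was the lowest of the 6 arrays for 5 genes and the highest for none. CON replicate 1 and CGP replicate 1 were each the highest for 3 genes. Leaving out an array changed how many genes had groups that did not overlap: 4 genes without CON replicate 3 (Pmch, Nts, Gal and Hcrtr2, against 28.3% of all tested probesets), 4 without CGP replicate 1 (Qrfp, Nts, Gal and Hcrtr2, against 33.9%), 2 without CON replicate 1 (Mchr1 and Hcrtr2, against 26.3%) and 2 without CGP replicate 2 (Hcrt and Hcrtr2, against 25.6%). Hcrtr2 was apart in all 6 cases by construction, since groups that lie apart on all arrays stay apart when an array is removed. Such a count can only stay or rise when an array is left out.

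**Figure D2:**
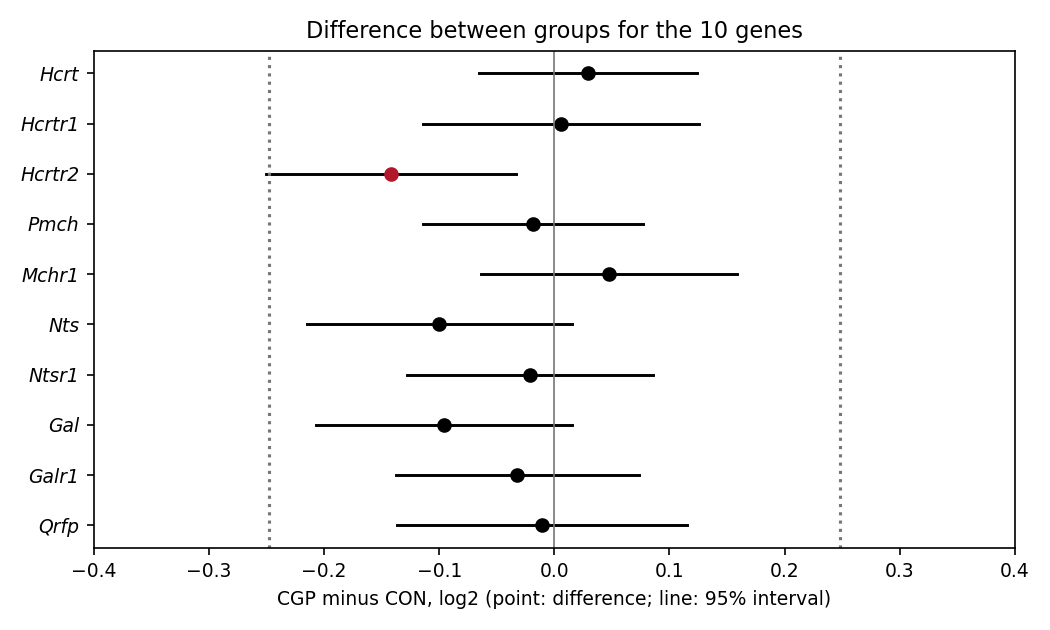
Difference between CGP and CON on the log2 scale (horizontal axis) for each of the 10 genes, with points for the difference, lines for its 95% interval from limma and a red point where the arrays of the groups lay apart. The dotted lines mark the smallest difference that passed the test among all tested probesets, 0.25 in either direction; 9 of the 10 intervals cross 0, and that of Hcrtr2 runs from -0.25 to -0.033.

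Genes that lateral hypothalamic neurons share with these peptides showed 1 change among the 10 tested. Lhx9, a LIM homeodomain transcription factor of orexin neurons that is also known from the thalamus, rose from 8.28, 8.32 and 8.32 in CON to 8.61, 8.71 and 8.60 in CGP. All CGP arrays were above all CON arrays, and the rise of 0.33 (standard error 0.042) was 1.26-fold, with an adjusted p of 0.0253 from limma. The call of Lhx9 was lost with any 1 array left out (difference 0.30 to 0.35, adjusted p 0.0676 to 0.144). Hcrt, the product that defines these neurons, did not pass the test on the same arrays, as given above.

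Cartpt, the CART peptide precursor found in many MCH neurons and elsewhere in the hypothalamus, read 10.49, 10.43 and 10.48 in CON and 10.28, 10.21 and 10.18 in CGP. The arrays lay apart, and the difference of -0.24 (standard error 0.041) missed the threshold with an adjusted p of 0.0696 from limma. Cartpt passed in 2 of the 14 alternative fits, that with array weights (adjusted p = 0.0388) and that with a trended and robust eBayes step (adjusted p = 8.41e-04), and its adjusted p lay between 0.0608 and 0.293 in the others. Nptx2, a pentraxin that clusters AMPA receptors and is enriched in orexin neurons, differed by 0.16 with the arrays apart (adjusted p = 0.378). The list, which also holds Pdyn, Slc17a6, Tacr3, Gad1, Lepr, Trh and Tac1, had a median difference of -0.030. Its CGP arrays lay wholly above the CON arrays for 3 genes, Slc17a6 among them, and wholly below for 2, Trh among them. Over all tested probesets the groups lay apart in 17.5%.

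In the thalamus list, 1 of 10 markers rose, the kinase gene Prkcd, by 0.27 (adjusted p = 0.0467 from limma), none fell, and the median was 0.16. The other large differences in that list were 0.28 for Synpo2 (adjusted p = 0.0582) and 0.24 for Lef1 (adjusted p = 0.169). The mean level of the thalamus list was 10.13 to 10.14 on the CON arrays and 10.26 to 10.29 on the CGP arrays, all higher in CGP as Lhx9 was. The part of thalamic tissue in the difference of Lhx9 was not tested.

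None of the 7 other ligands and receptors of these families passed the test. Galr3, a further galanin receptor, had the largest difference, 0.13 (adjusted p = 0.410 from limma), and its CGP arrays (8.04 to 8.17) lay above its CON arrays (7.90 to 8.03). Galr2 differed by 0.057 and Spx, a ligand of Galr2 and Galr3, by 0.043, while the median of the 7 genes was 0.0025. For the neurotensin receptor Ntsr2 the difference was -0.030, for the sorting receptor Sort1 it was 0.0025, for Qrfpr, the receptor of the Qrfp peptide, -0.0034, and for Galp, the galanin-like peptide gene, -0.042.

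Enzymes and granule proteins that cut and pack such peptides were tested as 10 genes, none of which passed. Pcsk1, a convertase that cuts at paired basic residues, had the largest difference, -0.10 (adjusted p = 0.585 from limma). Qpct, which forms the pyroglutamate at the start of orexin-A and neurotensin, differed by -0.088 (adjusted p = 0.466), and the granule protein gene Scg2 by -0.087 (adjusted p = 0.456). Of the 10 genes, 7 were lower and 3 higher, with a median of -0.050. The CGP arrays lay wholly below the CON arrays for Pam, the amidating enzyme, for Qpct and for Scg2, and wholly above for Pcsk1n, an inhibitor of Pcsk1. Groups lay apart in 17.5% of all tested probesets.

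G protein subunits, phospholipases and channels that act after these receptors were 13 genes, and again none passed. The largest difference was that of Kcnj9, a potassium channel subunit opened by inhibitory receptors, at 0.11 (adjusted p = 0.468 from limma). Plcb1, a phospholipase downstream of Gq, differed by -0.079 (adjusted p = 0.668) and Trpc5, a cation channel, by -0.074 (adjusted p = 0.565). The median of the list was -0.028, with 9 genes lower and 4 higher.

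**Figure D3:**
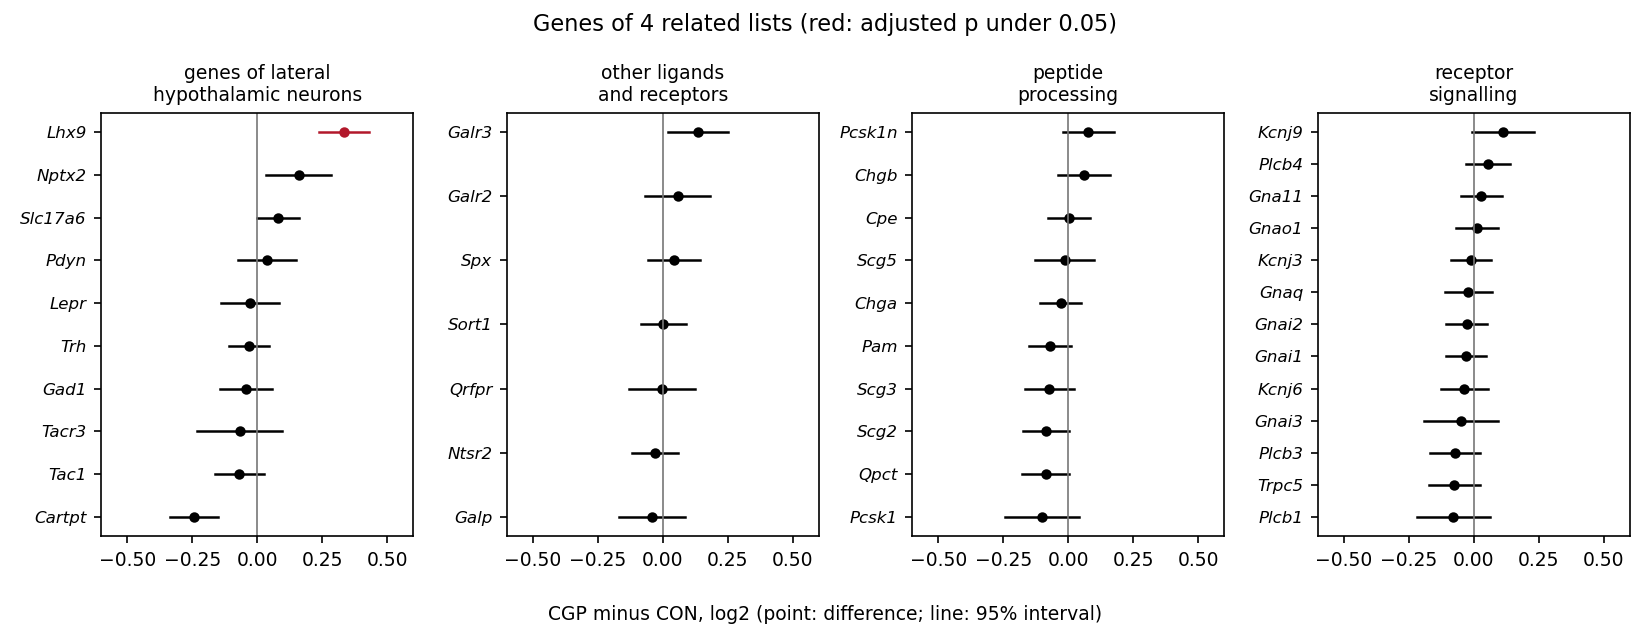
Difference between CGP and CON on the log2 scale (horizontal axis) for the 40 tested genes of 4 related lists, with points for the difference and lines for the 95% interval from limma. Lhx9, in red, at 0.33, is the one gene that passed the test, and Cartpt, at -0.24, lies farthest on the other side.

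Markers of the tissues that the labels name were read as well. Differences between the groups cannot tell hypothalamus from adrenal gland, since both groups carry the same tissue label. Of 14 hypothalamic markers tested, none passed the test, 9 were lower and 5 higher, with a median of -0.041. The CGP arrays lay wholly below the CON arrays for 5 of the 14 and wholly above for 1. Over all tested probesets the groups lay apart in 17.5%. The largest differences were those of the transcription factor genes Nkx2-1 (-0.14, adjusted p = 0.422 from limma) and Sim1 (-0.11, adjusted p = 0.325) and of Hdc, the histamine-forming enzyme (-0.12, adjusted p = 0.362). The mean level of this list was 9.26 to 9.28 on the CON arrays and 9.21 to 9.25 on the CGP arrays. None of 7 markers of the adrenal gland, which the labels also mention, passed (median -0.0041), and their mean level was 6.43 to 6.54 in CON and 6.46 to 6.51 in CGP. Over the 6 arrays the means of these 7 genes ran from 6.06 for Cyp11a1, the enzyme that starts steroid synthesis, to 7.03 for Cyp11b2, the aldosterone synthase. The largest adrenal differences were 0.12 for Star, with the CGP arrays above the CON arrays (adjusted p = 0.374 from limma), -0.11 for Nr0b1 (adjusted p = 0.553) and 0.099 for Pnmt (adjusted p = 0.675).

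Markers of neighbouring tissue did differ, and some by more than any of the 10 genes. The lists were chosen with earlier results of these data known, so their counts and medians are not independent of those results. Of 7 anterior pituitary markers, 3 rose: Pomc by 1.56 (2.95-fold, adjusted p = 9.37e-06 from limma), Lhb by 0.46 and Gh by 0.39. The other 4 did not pass: Fshb differed by 0.15, Prl by 0.10, Cga by 0.044 and Tshb by -0.037. In this list 6 markers were higher and 1 was lower. Pomc encodes the precursor of ACTH and is also made by neurons of the arcuate nucleus. The pituitary list, Pomc included, had a median of 0.15 and mean levels of 10.11 to 10.18 in CON and 10.52 to 10.54 in CGP. In the choroid plexus 2 of 9 markers rose, Ttr, the thyroxine carrier, by 0.84 (adjusted p = 2.90e-04 from limma) and the bicarbonate transporter gene Slc4a5 by 0.40, while Kcne2 differed by 0.24 (adjusted p = 0.177). All 9 were higher, with a median of 0.21 and mean levels of 8.21 to 8.23 in CON and 8.46 to 8.51 in CGP. Of 10 meningeal markers 5 fell, Prg4 by 0.57, Ogn by 0.44, Fmod by 0.36, Slc6a20a by 0.32 and Igf2 by 0.25, and Slc6a13 differed by -0.41 (adjusted p = 0.0597 from limma). Dcn differed by -0.26 (adjusted p = 0.14 from limma). Col1a1 (-0.014), Col1a2 (0.0040) and Lum (0.020) differed little, and their groups overlapped. Of the 10 meningeal markers 8 were lower and 2 higher. The meningeal list had a median of -0.29, with mean levels of 8.92 to 8.94 in CON and 8.63 to 8.70 in CGP.

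In the midbrain dopamine list, 1 of 10 markers fell, the dopamine transporter gene Slc6a3, by 0.39 (adjusted p = 0.0165 from limma). Chrna6, a nicotinic receptor subunit gene of these neurons, differed by -0.35 (adjusted p = 0.0526) and Th, the rate-limiting enzyme of dopamine synthesis, by -0.25 (adjusted p = 0.0576). All 10 were lower, with a median of -0.22 and mean levels of 9.45 to 9.48 in CON and 9.24 to 9.27 in CGP. None of 8 striatal markers passed (median 0.081), the largest differences being those of Ido1 (0.16), Pde10a (0.14) and Rgs9 (0.097). None of 8 markers of cortex and hippocampus passed either (median 0.0075), where Prox1 differed by 0.12, Emx1 by -0.058 and Neurod2 by 0.055. The part of such tissue in the values of the 10 genes was not tested.

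Many of these marker calls were lost under other settings. With 1 array left out the 6 higher calls became 2 and the 6 lower calls 0 to 2. Pomc was called in 14 of the 14 alternatives, Ttr in 13 and Prg4 in 10, while Slc6a3 and Ogn were called in 6, Gh, Lhb, Slc4a5, Fmod and Slc6a20a in 5, Prkcd in 4 and Igf2 in 3.

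**Figure D4:**
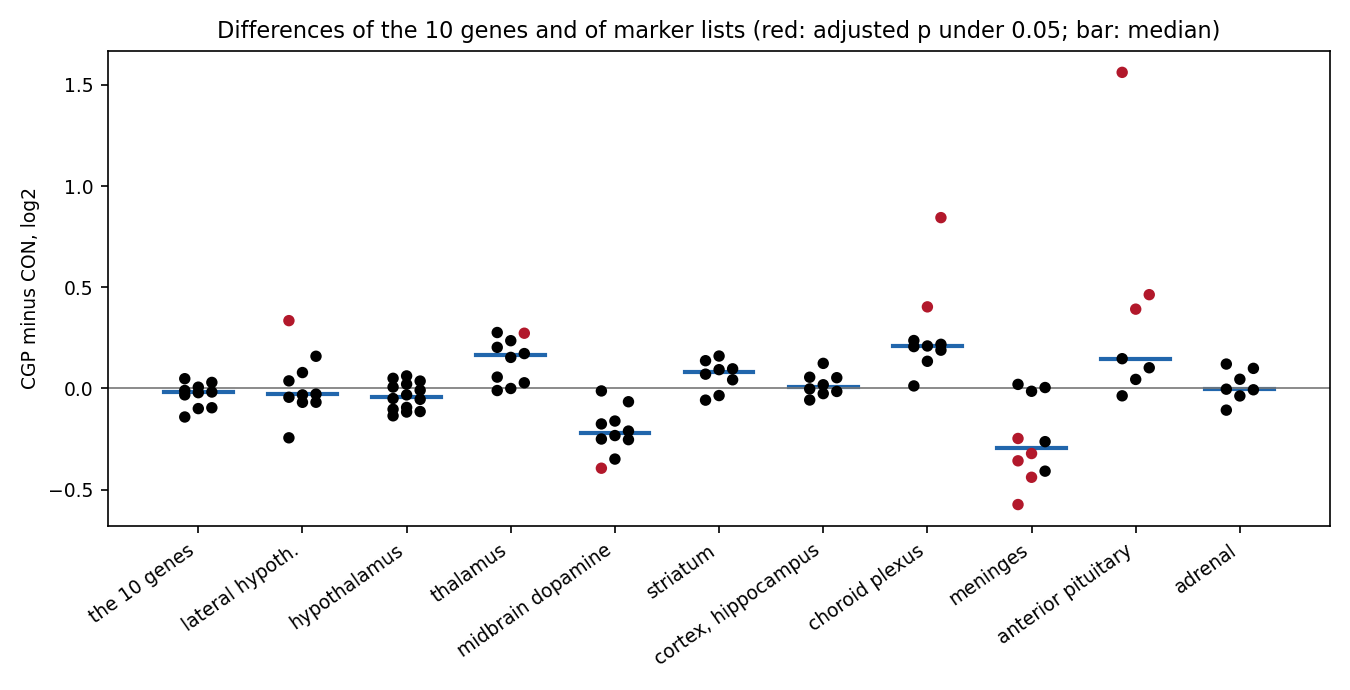
Difference between CGP and CON on the log2 scale (vertical axis) for the 10 genes, for genes of lateral hypothalamic neurons and for 9 lists of tissue markers; each point is a gene, red where it passed the test, and bars are medians. The 10 genes lie between -0.14 and 0.048, while the medians of the marker lists run from -0.29 in meninges to 0.21 in choroid plexus.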

How the data were processed

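Values were taken as the authors deposited them, in a single log2 table of 28471 probesets by 6 arrays. The labels name RMA and Partek; their versions and any genome build were not given in the sources used here. RMA corrects background, quantile-normalizes and summarises probes, which compresses changes of probesets near background and removes shifts shared by a whole array. Array medians lay between 8.191 and 8.206. No pair of arrays was identical, and arrays correlated at 0.9973 to 0.9983 within and 0.9963 to 0.9978 between groups.

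Gene names came from the platform annotation at GEO: 18690 carried 1 gene, 1163 several, and 8618 were not listed. Of the Entrez identifiers, 18620 matched RefSeq (GRCm38.p6). Single-gene probesets with a mean of at least 6 (18239) were tested in limma 3.58.1 under R 4.3.3 (lmFit, eBayes, no covariate) with Benjamini-Hochberg adjustment over all of them; genes rose or fell at an adjusted p under 0.05. The probeset with the highest mean stood for a gene. The script was tested on simulated data. The files hold no detection p, and the number of arrays limits the precision. Signals of different probesets were not compared. The 14 alternatives were other filters and variance models, median centring, gene means, a replicate block and each array left out.

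Members and lists were chosen with earlier results of these data known. Genes named are the members, list genes that passed, the up to 3 largest differences per list, and, for Pmch and Hcrt, the 3 genes with the nearest profile; others were chosen after their values were seen. In each of the 4 pathway and 9 tissue lists every tested member was counted, and 11 listed genes were not tested.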

Additional observations from a re-analysis of the deposited data

How the results depend on the processing

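None of the 10 genes passed in any of the 14 alternatives (lowest adjusted p 0.209, Hcrtr2), and Hcrt, Nts, Gal, Hcrtr2 and Mchr1 kept their sign in all of them. The sign of small differences turned for the others: Hcrtr1 was at -0.019 with array weights and Qrfp at 0.0018 after median centring, and with 1 array left out Pmch ran from -0.046 to 0.0036, Qrfp from -0.041 to 0.044, Hcrtr1 from -0.038 to 0.048, Galr1 from -0.061 to 0.00059 and Ntsr1 from -0.053 to 0.0092. The number of the 10 genes with groups apart was 1 to 4 with 1 array left out, a count that leaving out an array cannot lower. Over all tested probesets, 51 calls became 5 with all deposited probesets, 77 with array weights, 249 with a trended and robust eBayes step, 6 without variance moderation, 6 with the replicate block and 6 to 10 with 1 array left out. In the pathway lists the 1 higher call (Lhx9) became 0 with all deposited probesets, without variance moderation, with the replicate block and with 1 array left out (0 to 0), and 1 lower call (Cartpt) was gained with array weights and with the trended and robust step. Of the tissue markers, 6 higher and 6 lower calls became 2 and 0 with all deposited probesets, 13 and 14 with the trended and robust step, 1 and 0 without moderation, 2 and 1 with the replicate block, and 2 and 0 to 2 with 1 array left out, and lower calls were 10 with array weights. Without moderation, with the replicate block or with fewer arrays each test has fewer degrees of freedom. The cause of the other shifts was not tested. The same was followed for 43 other genes: list genes that passed, the up to 3 largest differences per list, and Abl1. Among these no difference changed sign, 96 of 602 values lost a call and 13 gained a call. The genes with profiles nearest to Pmch and Hcrt, and further list genes named in the text, were not among them. Same-numbered arrays did not deviate together (correlations of 0.078, -0.18 and 0.11, with the same-numbered CGP array the best match for 1 of 3 CON arrays), so that the numbers were not taken as pairs.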

Other observations

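The profiles of Pmch and Hcrt over the 6 arrays, each centred on its own mean, were compared with those of other tested genes. Genes with predicted, clone or small RNA names were left out. Nearest to Pmch were Lsm2, an RNA-binding protein gene of the spliceosome, Rnf170, a ubiquitin ligase gene, and D8Ertd738e, with root mean square differences of 0.0075, 0.0084 and 0.0091 on the log2 scale. Pmch itself varied around its mean by a root mean square of 0.038. The genes nearest to Hcrt (0.039 around its mean) were the nuclear receptor gene Nr1i2 (0.011), Srcin1 (0.011), which encodes a regulator of Src kinase, and Apba1 (0.011), which encodes an adaptor of synaptic vesicle release. These likenesses are over 6 arrays and among genes whose signal hardly varied.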
